A study of Mus musculus with 14 samples.

Results

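Interferon-stimulated genes are genes whose transcription rises when a cell senses interferon, and 34 of them were followed by RNA-seq in the superior mesenteric artery (SMA), with 14 mice in all. The genes were taken by symbol from a list drawn up with earlier results of these data in view, so that their presence as a group that differs between mice is not a finding in itself. All 34 symbols stood among the 46095 of the count table. Of these, 33 passed edgeR's filterByExpr by the 4 groups and were tested among 17693 genes, and only Isg15 did not pass. The mice were C57BL/6 and 8 weeks old. The groups were Drp1 +/+ mice (WT) and mice that the labels give as Drp1 flox/+ (called Drp1 KO after the study), each under normal conditions and after ischemia, with 3 WT and 4 Drp1 KO mice in each condition. Drp1 KO mice were heterozygous. The study's methods describe a frameshift made with CRISPR/Cas9, and do not explain the flox in the labels. Ischemia was made by bleeding, and the sample descriptions of the ischemia groups carry the mark 2 h whereas the study's text gives a longer period. Mice are named below by group and replicate number, and their sex is not given in the sources used here.

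Cells that detect viral or misplaced nucleic acid secrete type I interferon, which binds the receptor chains Ifnar1 and Ifnar2 on the same and on neighbouring cells. The receptor activates Stat2, which acts together with Irf9 at a DNA sequence called the interferon-stimulated response element (ISRE). Interferon gamma, which is made mainly by T cells and natural killer cells, acts through another receptor and another DNA sequence, the gamma-activated site (GAS). Many genes answer to both, while some, such as the guanylate-binding proteins, lean towards interferon gamma. Smooth muscle and endothelial cells of arteries carry both kinds of receptor.

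The response element is visible in several of the promoters printed here. Each sequence runs 5′ to 3′ on the strand of its gene over the 200 bases before the RefSeq start of transcription in GRCm38.p6, and capitals mark matches to the ISRE core (GAAA, any 2 bases, GAAA) on either strand. Isg15 was shown because it is a well-known member that these counts hardly register, Ifit1, Ifit3 and Rsad2 because they differed widely between mice, Gbp2 and Gbp3 because they peaked in another mouse than those, and Oasl1 as a widely varying member without a match.
Isg15 (chr4:156200819-156201018, minus strand): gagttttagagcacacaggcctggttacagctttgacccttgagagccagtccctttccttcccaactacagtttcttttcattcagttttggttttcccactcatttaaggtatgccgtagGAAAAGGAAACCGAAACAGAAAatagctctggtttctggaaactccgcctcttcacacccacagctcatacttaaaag
Ifit1 (chr19:34640689-34640888, plus strand): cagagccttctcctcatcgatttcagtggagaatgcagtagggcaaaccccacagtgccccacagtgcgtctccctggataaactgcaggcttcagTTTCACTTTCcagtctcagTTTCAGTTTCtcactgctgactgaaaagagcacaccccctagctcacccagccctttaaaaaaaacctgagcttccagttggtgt
Ifit3 (chr19:34583329-34583528, plus strand): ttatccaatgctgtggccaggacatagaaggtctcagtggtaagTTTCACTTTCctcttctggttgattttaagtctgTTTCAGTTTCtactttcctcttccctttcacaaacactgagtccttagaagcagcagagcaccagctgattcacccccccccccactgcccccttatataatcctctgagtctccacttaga
Rsad2 (chr12:26456453-26456652, minus strand): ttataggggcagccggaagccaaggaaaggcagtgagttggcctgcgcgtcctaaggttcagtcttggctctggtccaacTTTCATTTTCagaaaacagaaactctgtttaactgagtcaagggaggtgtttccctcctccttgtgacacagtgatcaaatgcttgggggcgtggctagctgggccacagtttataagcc
Gbp2 (chr3:142620463-142620662, plus strand): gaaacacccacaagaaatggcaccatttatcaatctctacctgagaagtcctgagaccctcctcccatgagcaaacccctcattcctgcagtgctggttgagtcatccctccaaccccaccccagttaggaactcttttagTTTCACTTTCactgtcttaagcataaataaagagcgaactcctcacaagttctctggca
Gbp3 (chr3:142559844-142560043, plus strand): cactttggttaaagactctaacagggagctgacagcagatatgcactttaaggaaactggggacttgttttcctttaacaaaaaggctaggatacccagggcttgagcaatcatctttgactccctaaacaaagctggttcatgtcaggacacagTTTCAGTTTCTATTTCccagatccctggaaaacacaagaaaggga
Oasl1 (chr5:114923040-114923239, plus strand): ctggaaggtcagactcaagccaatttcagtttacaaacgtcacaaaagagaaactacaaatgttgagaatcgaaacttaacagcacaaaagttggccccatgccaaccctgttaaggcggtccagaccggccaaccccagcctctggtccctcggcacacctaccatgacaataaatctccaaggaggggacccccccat
In Isg15 the stretch in capitals holds 3 overlapping cores that begin 78, 72 and 66 bases before the start. Ifit1 holds 2 cores at 104 and 85 bases before the start, and Ifit3 holds 2 at 156 and 122. Rsad2 and Gbp2 hold 1 each, at 120 and 59 bases before the start, and the 2 cores of Gbp3 at 45 and 39 overlap. A promoter window of 250 bases before to 50 bases after the start was at hand for 25 of the 34 genes, and 13 of these 25 (52%) held the core, against 3.44% of 32851 mouse promoters of the same length. The GAS pattern TTCNNNGAA, which can overlap an ISRE core, stood in 5 of the 25 (20%), against 8.3% of all promoters. The stricter form TTCCNGGAA stood in 2 (8%), against 1.15%. These shares count genes, whereas the shares of all promoters count windows. The 25 genes had 28 windows, of which 13 held the ISRE core, 5 the GAS pattern and 2 its stricter form. A match of letters is a description and does not show a bound site, and the missing match in Oasl1 says only that these letters are not in the window.

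The table held 25612646 to 40255851 counts per mouse, with a median of 33506452. Smooth muscle markers had summed levels of 6970.6 to 35650 CPM (counts relative to the TMM-scaled library total), with 5 of 5 tested. Among them Tagln was at only 0.675 to 5.78 CPM, against 3357 to 18598 CPM for Acta2, so the sum hardly holds Tagln. Dnm1l, the gene of Drp1, was at 73.5 ± 15.1 CPM (SD, n = 3) in WT normal and 58.9 ± 3.30 (n = 4) in KO normal mice and did not pass the test, with a log2 fold change of −0.32 and an FDR of 0.974 (edgeR). After ischemia it was at 75.0 ± 10.3 CPM in WT (n = 3) and 69.4 ± 6.88 in KO mice (n = 4), with a log2 fold change of −0.11 and an FDR of 0.872. WT normal mouse 3 was sequenced on lane 1 and the other 13 mice on lane 8, so that lane and mouse cannot be told apart there.

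The interferon-stimulated genes separated single mice from their group mates more than they separated the groups. The mean log2 CPM of the 33 tested genes was 3.44, 6.40 and 4.47 in WT normal mice 1 to 3. It was 3.68, 3.62, 3.59 and 5.64 in KO normal mice 1 to 4. After ischemia it was 1.72, 5.47 and 2.14 in WT mice and 2.44, 2.99, 3.57 and 2.71 in KO mice. WT normal mouse 2, KO normal mouse 4 and WT ischemia mouse 2 therefore stood above every other mouse, and the KO ischemia group had no such mouse. The 4 group means were 4.77 ± 1.502 (SD, n = 3), 4.13 ± 1.01 (n = 4), 3.11 ± 2.06 (n = 3) and 2.93 ± 0.48 (n = 4) in the same order. The highest mouse exceeded the lowest 7.78-fold in the WT normal group, 4.14-fold in the KO normal group, 13.5-fold in the WT ischemia group and 2.19-fold in the KO ischemia group. In tissue as a whole, more cells of one type and more RNA per cell cannot be told apart.

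**Figure D1:**
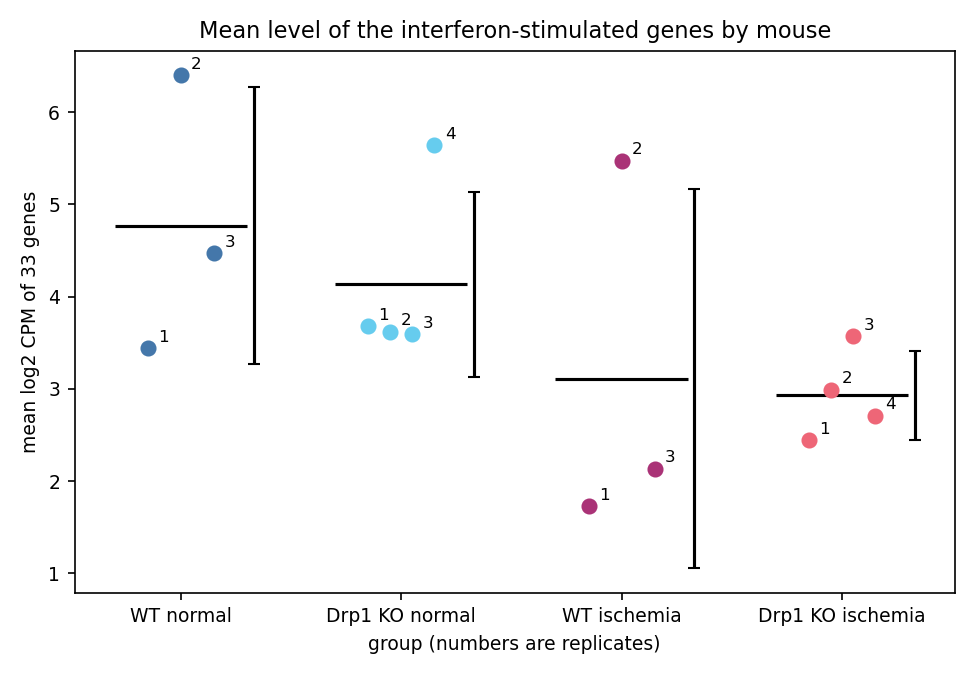
Mean log2 CPM of the 33 tested genes (vertical axis) in each mouse, by group, with replicate numbers beside the points, group means as horizontal lines and the SD as bars. WT normal mouse 2 (6.40), KO normal mouse 4 (5.64) and WT ischemia mouse 2 (5.47) lie above all other mice, the next of which is at 4.47.

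The same mice led gene by gene. WT normal mouse 2 was the highest of its group for 33 of 33 genes, WT ischemia mouse 2 for 33 of 33, and KO normal mouse 4 for 32 of 33. The exception was Mx2, which was highest in KO normal mouse 1 at 6.996 CPM and stood at 5.55 in mouse 4. Mx2 belongs to a family of dynamin-like antiviral GTPases. The gene models list it as a polymorphic pseudogene, so an antiviral function in these mice is not implied. Over all 14 mice, WT normal mouse 2 held the highest value of 25 genes, KO normal mouse 4 of 7 and WT ischemia mouse 2 of 1 (Mx1, at 6.94 CPM). The lowest value fell to WT ischemia mouse 1 for 21 genes. In the KO ischemia group mouse 3 was highest for 22 of 33.

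**Figure D2:**
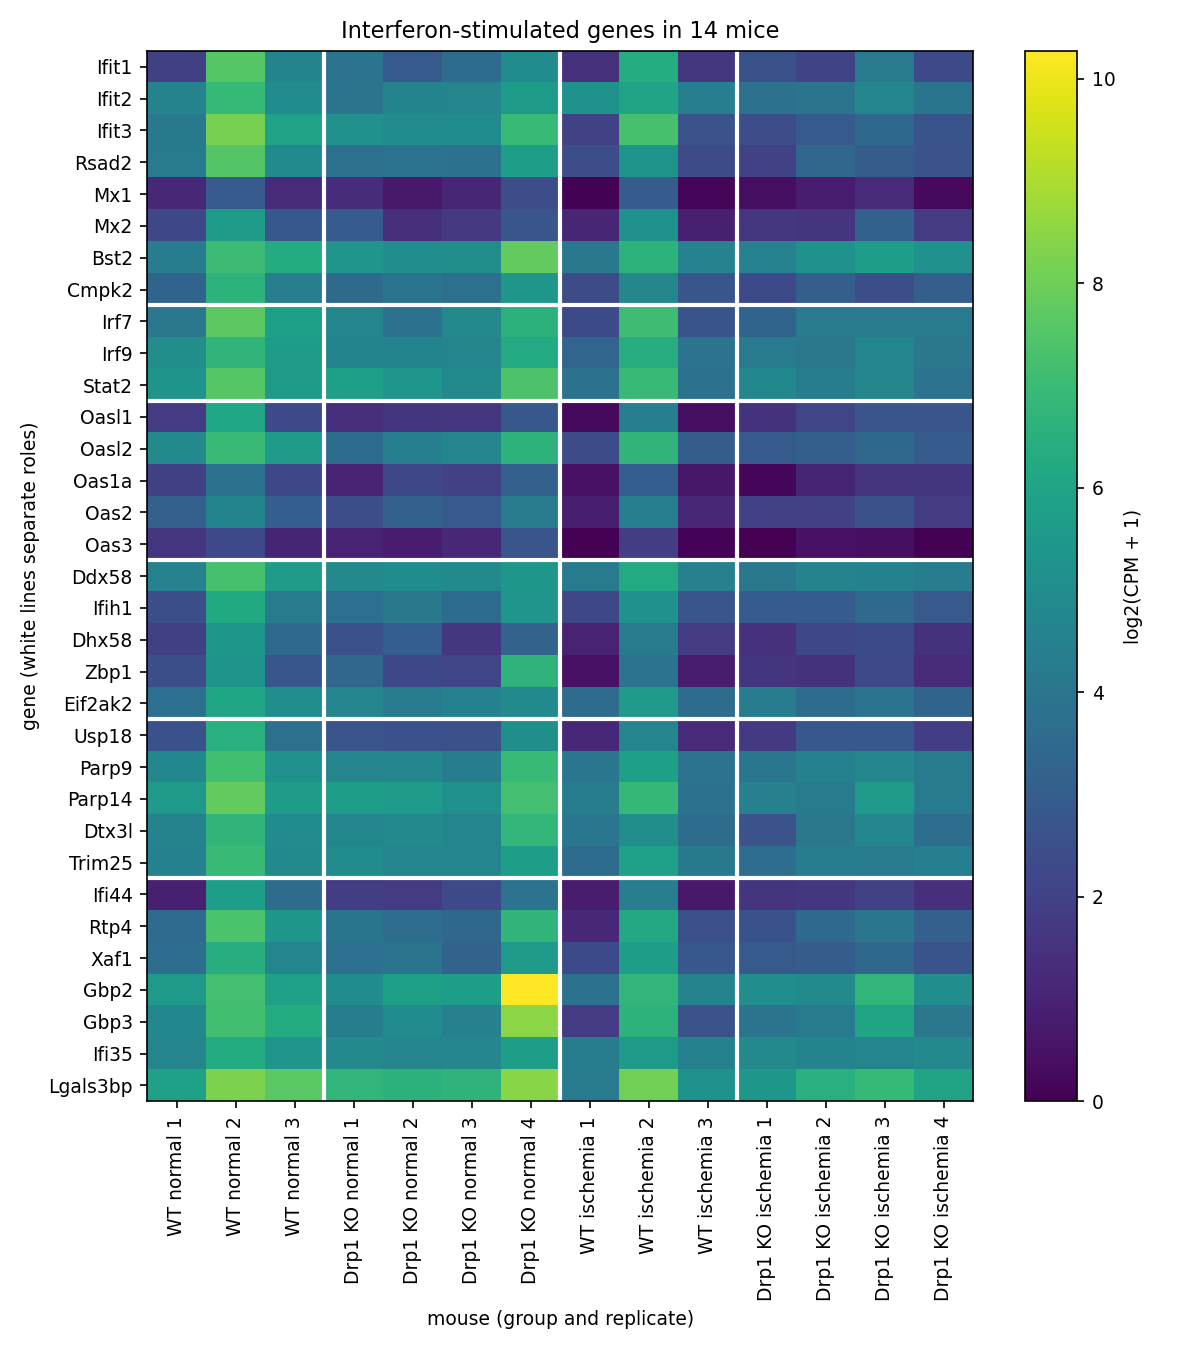
Levels of the 33 tested genes as log2(CPM + 1), colour scale at the right, with genes grouped by role and mice in columns by group. The columns of WT normal mouse 2, KO normal mouse 4 and WT ischemia mouse 2 are brighter than those of their group mates, and the brightest single value is Gbp2 in KO normal mouse 4 (1237 CPM).

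The spread between mice of a group was wide for these genes. The SD of log2 CPM within groups had a median of 1.41 over the 33 genes (0.61 to 2.27), against 0.557 over all tested genes and 0.451 over the 12430 genes whose mean level lay in the same range. Of all tested genes, 11.3% had an SD above the median of the 33. With group means removed, each gene was set against the mean of the other 32 over the 14 mice. Pearson's r had a median of 0.932 and Spearman's rho of 0.890, as a description without a test, since all values of a mouse share a library. The lowest r was 0.811 for Gbp2 and the highest 0.987 for Usp18. The 528 pairs of genes had a median r of 0.874 and ranged from 0.496 to 0.987. Of 17660 other tested genes, 274 (1.55%) had an r with the mean of the 33 as high as that of Gbp2. Without any 1 mouse the median r lay between 0.898 and 0.943. Without the 3 high mice, which were picked by these same values, it was 0.697 and the lowest gene was at 0.238. Without the 2 mice farthest from the median, WT normal mouse 2 and KO normal mouse 4, it was 0.936.

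Among the sensors, Ddx58 encodes RIG-I, a receptor for viral RNA. Its level was 22.5, 154 and 50.8 CPM in the WT normal mice and 27.4, 30.6, 29.1 and 42.3 in the KO normal mice. After ischemia it was 17.5, 77.4 and 21.1 CPM in WT mice and 16.3, 23.4, 22.1 and 18.9 in KO mice. Mouse 2 was high in both WT groups, no KO mouse reached it, and the KO ischemia mice all lay below the KO normal mice. Ifih1, which encodes the long double-stranded RNA sensor MDA5, was at 4.54, 75.4 and 18.6 CPM in WT normal and 12.3, 16.2, 11.3 and 39.6 in KO normal mice. After ischemia Ifih1 stood at 3.74, 36.4 and 5.58 CPM in WT and 7.01, 6.91, 10.4 and 6.32 in KO mice. Dhx58 (the related helicase LGP2) and Eif2ak2 (the kinase PKR) ranged from 0.973 to 42.5 CPM and from 8.94 to 64.8 CPM over the 14 mice, with the peak in WT normal mouse 2. Zbp1, a sensor of Z-form nucleic acid, peaked instead in KO normal mouse 4, at 103 CPM against 3.48 to 9.53 in its group mates and 39.2 in WT normal mouse 2.

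The transcription factors on the list varied with the other listed genes, with r at 0.97 for Irf7, 0.98 for Irf9 and 0.94 for Stat2. Outside the list, Irf1, Irf2, Irf3, Irf5 and Irf8 had r from −0.40 (Irf3) to 0.72 (Irf8). Irf7, which amplifies interferon production, was at 16.0, 205 and 54.9 CPM in WT normal mice and 25.6, 13.8, 27.4 and 95.7 in KO normal mice. After ischemia Irf7 stood at 3.89, 133 and 5.28 CPM in WT and 8.97, 17.3, 17.7 and 17.3 in KO mice. Thus the 2 low WT ischemia mice lay below every KO ischemia mouse and the third lay above all of them. Stat2, a subunit of the complex that binds the ISRE, was at 38.4, 190 and 47.2 CPM in WT normal and 56.1, 40.5, 29.3 and 167 in KO normal mice. After ischemia Stat2 was at 13.5, 123 and 13.2 CPM in WT and 27.1, 18.8, 25.9 and 14.3 in KO mice, all 4 of which were below the KO normal mice. Irf9, the DNA-binding subunit of the same complex, ranged from 9.15 to 104 CPM with its peak in WT normal mouse 2.

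Of the antiviral effectors, Ifit1, which binds foreign RNA ends, was at 2.89, 187 and 23.9 CPM in WT normal mice and 14.1, 6.57, 11.3 and 30.4 in KO normal mice. After ischemia Ifit1 was at 1.76, 81.5 and 2.04 CPM in WT and 4.87, 3.32, 17.1 and 3.86 in KO mice. The 3 WT mice of either condition thus spanned both the lowest and the highest Ifit1 values of that condition. Ifit3, its partner in the cell, was at 16.9, 287 and 59.7 CPM in WT normal and 36.2, 29.9, 31.3 and 120 in KO normal mice. After ischemia Ifit3 stood at 2.92, 154 and 5.17 CPM in WT and 4.34, 6.54, 9.77 and 5.38 in KO mice. The KO groups did not overlap, whereas the WT groups did, because WT ischemia mouse 2 lay above 2 of the 3 WT normal mice. The table also lists Ifit3b, a near-identical copy that can share reads with Ifit3, so the split between the pair is uncertain. Rsad2, which encodes viperin, was at 17.1, 182 and 29.2 CPM in WT normal mice, 12.9, 14.3, 13.8 and 53.9 in KO normal mice, 4.44, 38.8 and 4.20 in WT ischemia mice and 3.06, 9.46, 7.19 and 5.26 in KO ischemia mice. Bst2, the membrane tether that retains budding virus, was at 19.1, 133 and 79.1 CPM in WT normal and 40.1, 32.2, 33.1 and 224 in KO normal mice. After ischemia Bst2 was at 16.5, 98.2 and 22.3 CPM in WT and 22.6, 38.1, 53.2 and 35.6 in KO mice. Bst2 was one of the genes for which KO normal mouse 4 exceeded WT normal mouse 2. Ifit2, Cmpk2, Mx1 and Mx2 were highest in either WT normal mouse 2 or, for Mx1, WT ischemia mouse 2.

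In the oligoadenylate synthetase family, whose enzymes make the activator of the RNA-degrading enzyme RNase L, Oasl2 was at 28.0, 121 and 49.6 CPM in WT normal and 11.5, 20.3, 25.2 and 99.6 in KO normal mice. After ischemia Oasl2 was at 4.23, 104 and 7.15 CPM in WT and 6.57, 7.74, 9.77 and 7.02 in KO mice. The 4 KO ischemia mice lay close together and below every KO normal mouse. Oasl1, a family member without that enzyme activity, was at 2.51, 67.7 and 3.77 CPM in WT normal and 1.69, 1.91, 2.10 and 6.20 in KO normal mice. After ischemia Oasl1 stood at 0.213, 19.9 and 0.304 CPM in WT and 1.84, 3.38, 5.56 and 5.56 in KO mice. WT normal mouse 2 thus carried most of the Oasl1 signal of its condition. Oas1a, Oas2 and Oas3 reached at most 23.7 CPM in any mouse, and Oas3 was at 0 CPM in WT ischemia mouse 1 and KO ischemia mouse 1.

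Among the genes of ubiquitin-like and ADP-ribose modification, Usp18, the enzyme that removes Isg15 from proteins and restrains the type I receptor, was at 4.99, 89.7 and 12.9 CPM in WT normal and 5.56, 5.03, 4.81 and 33.8 in KO normal mice. After ischemia Usp18 was at 1.25, 24.4 and 1.35 CPM in WT and 2.35, 5.99, 5.88 and 2.68 in KO mice. It followed the mean of the other genes most closely. Parp14, an ADP-ribosyltransferase, was at 46.1, 225 and 50.4 CPM in WT normal and 52.8, 44.3, 35.04 and 147 in KO normal mice, and at 18.9, 113 and 13.3 CPM in WT ischemia and 21.1, 17.8, 45.2 and 18.2 in KO ischemia mice. Parp9 and its partner Dtx3l were high in both WT normal mouse 2 and KO normal mouse 4, at 140 and 124 CPM for Parp9 and at 105 and 112 CPM for Dtx3l. The gene models of Parp9 and Dtx3l overlap and the use of strand in counting is not stated, so their reads cannot be fully told apart. Isg15, the ubiquitin-like modifier itself, had 4 counts in all, 3 in WT normal mouse 3 and 1 in WT ischemia mouse 2, which is at or below the 3 counts per library set as the floor.

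The last group held GTPases and other genes. Gbp2, a guanylate-binding protein that attacks the membranes around intracellular microbes, was at 44.4, 148 and 57.3 CPM in WT normal and 31.2, 56.8, 53.7 and 1237 in KO normal mice. After ischemia Gbp2 was at 13.3, 107 and 22.9 CPM in WT and 31.8, 29.3, 107 and 31.4 in KO mice. No other member reached such a level in any mouse. Ifi44, a gene of less known function, was at 0.885, 52.4 and 11.3 CPM in WT normal and 2.65, 2.55, 3.86 and 13.9 in KO normal mice, and at 0.760, 20.04 and 0.635 CPM in WT ischemia and 1.93, 2.15, 3.10 and 1.67 in KO ischemia mice. Gbp3 followed Gbp2, with 357 CPM in KO normal mouse 4 against 19.4 to 29.7 in its group mates. Per kilobase of exon, mean levels over the 14 mice were highest for Bst2 (67.0 CPM per kb), Gbp2 (55.9), Lgals3bp (46.3) and Ifit3 (31.5), and lowest for Oas3 (0.193) and Mx1 (0.501).

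The 2 high mice under normal conditions did not share one profile. Relative to its group mates, WT normal mouse 2 was raised by a median of 2.22 on the log2 CPM scale over the 33 genes (1.28 to 4.48) and KO normal mouse 4 by 1.89 (0.40 to 4.76), against medians of 0.042 over all tested genes in both. Ifit1 stood 22.3-fold above the mean of the group mates in WT normal mouse 2 and 2.98-fold in KO normal mouse 4. Oasl1 stood 21.6-fold and 3.20-fold above in the same order. Mx2 stood 10.5-fold and 1.85-fold above, and Ddx58 4.56-fold and 1.46-fold. The order was the other way for Gbp2, at 2.92-fold and 27.1-fold, for Gbp3, at 3.05-fold and 15.4-fold, and for Zbp1, at 7.57-fold and 20.5-fold. In all, 11 of the 33 genes were raised more in KO normal mouse 4. WT ischemia mouse 2 was raised by a median of 3.40 (1.19 to 5.98), with Oasl1 63.3-fold, Mx1 56.5-fold and Ifit1 41.6-fold above the other WT ischemia mice. These are differences of 1 mouse from its group mates, chosen because it stood high, and carry no test.

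A list of 19 genes that lean towards interferon gamma or serve antigen presentation, 17 of which were tested, separated the same 2 mice further. Their median rise over the group mates was 3.75 on the log2 scale in KO normal mouse 4 and 2.09 in WT normal mouse 2, and 16 of 17 were raised more in KO normal mouse 4. Iigp1, an immunity-related GTPase, was at 2433 CPM there against 35.2 to 38.1 in its group mates and 158 in WT normal mouse 2. Ciita, the switch of class II antigen presentation, was at 37.4 CPM against 2.26 to 3.48 in its group mates and 2.13 in WT normal mouse 2. Cxcl9, a chemokine that draws T cells, was at 229 CPM against 6.66 to 12.04 in its group mates. The exception was the proteasome subunit Psmb9, which was at 4.47 CPM in WT normal mouse 2 and 2.24 in KO normal mouse 4. It stood at 0 CPM in WT normal mice 1 and 3 and at 0.0678 to 0.282 CPM in KO normal mice 1 to 3. Its rise is thus measured from group mates at or near 0, which limits this exception.

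**Figure D3:**
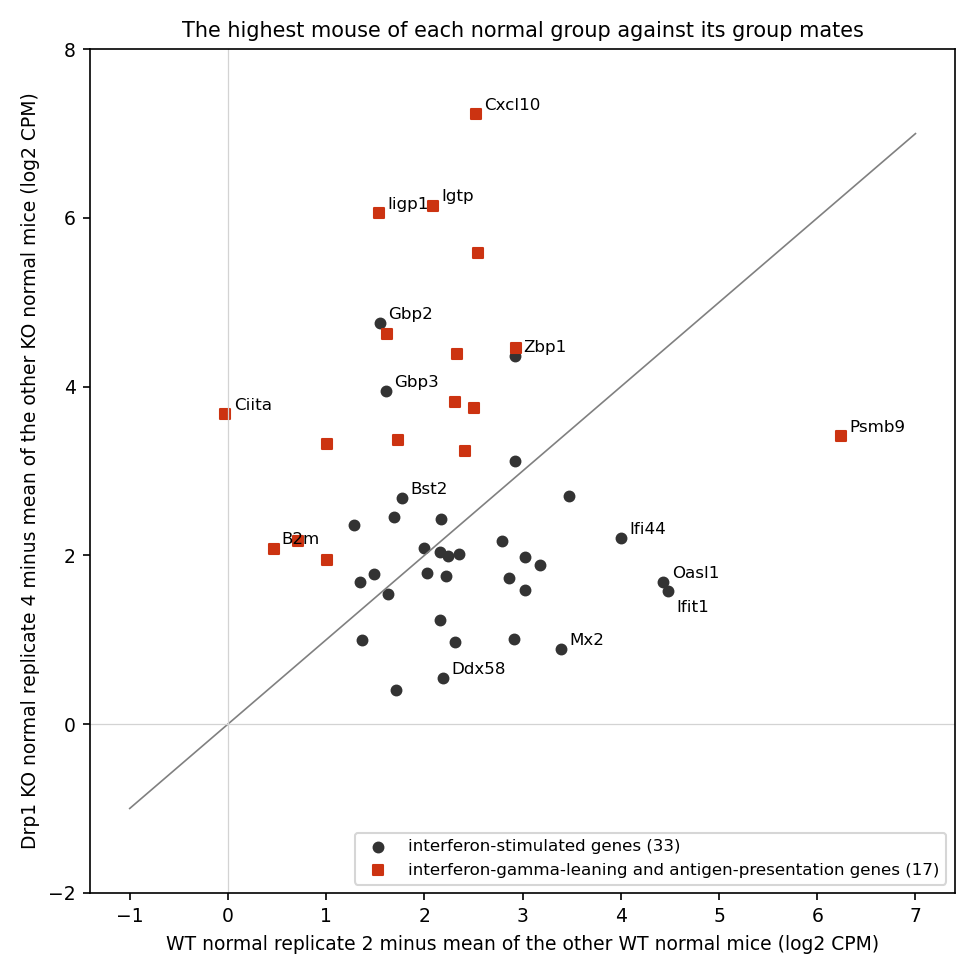
Each point is a gene, plotted by how far it stood above the mean of the group mates in WT normal mouse 2 (horizontal axis) and in KO normal mouse 4 (vertical axis), both as log2 CPM differences, and the line marks equal differences. Ifit1, Oasl1, Mx2 and Ddx58 lie below the line, Gbp2, Gbp3 and Zbp1 above it, and 16 of the 17 interferon-gamma-leaning and antigen-presentation genes (squares) lie above it.

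The ligands themselves were almost absent. Of 20 interferon genes in the table, 17 had 0 counts in all mice, and none passed the filter. Ifnb1 and Ifna14 had 1 count each. Ifng, the gene of interferon gamma, had 290 counts, of which 279 were in KO normal mouse 4, 10 in KO normal mouse 3 and 1 in KO ischemia mouse 3. WT normal mouse 2 and WT ischemia mouse 2 had 0 Ifng counts, which allows up to 3 counts in each library. T cell markers (5 of 5 tested) summed to 30.2 CPM in KO normal mouse 4 and to at most 7.11 CPM in every other mouse, with 1.10 to 7.11 in the other KO normal mice, 1.62 to 5.19 in WT normal, 0.221 to 1.56 in WT ischemia and 0.178 to 2.34 in KO ischemia mice. Of 3 natural killer cell markers only Klrk1 was tested. It stood at 4.17 CPM in KO normal mouse 4 and at most 1.21 CPM in every other mouse. The part of T cells and natural killer cells in the levels of the interferon-stimulated genes was not tested.

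Receptor levels spanned different ranges. Ifnar1 lay between 43.7 and 77.7 CPM and Ifngr1 between 81.4 and 115 CPM over the 14 mice, with WT normal mouse 2 highest for Ifnar1 and KO normal mouse 4 for Ifngr1. Ifnar2, the other chain of the type I receptor, lay between 31.3 and 114 CPM, with WT normal mouse 2 (114) and KO normal mouse 4 (112) highest. With group means removed, r with the mean of the 33 genes was 0.87 for Ifngr1, 0.84 for Ifnar2 and 0.51 for Ifnar1. It was 0.38 for Il10rb, 0.11 for Ifnlr1 and −0.48 for Ifngr2. All 6 receptor genes were tested, and by the same measure their r had a median of 0.446. Of 21 signalling genes 19 were tested, with a median r of 0.266. Irf1, a transcription factor that answers early to interferon gamma, was at 319 CPM in KO normal mouse 4 and 69.3 in WT normal mouse 2. Of the 8 negative regulators, Socs1, which blocks Jak kinases, was at 20.6 CPM in KO normal mouse 4, 7.28 in WT ischemia mouse 2 and 1.92 in WT normal mouse 2. Each of these lists had 0 genes called by edgeR (FDR below 0.05 with a fold over 1.5) in every comparison. DESeq2 called Socs3 after ischemia in both genotypes, and Ptpn6 and Ciita after ischemia in KO mice. It gave no adjusted p to 8 of the 17 interferon-gamma-leaning genes and 1 of the 8 negative regulators. Those genes could not be called. Of all genes, DESeq2 called 3.44% for ischemia in KO mice and 0.613% for ischemia in WT mice. At an unadjusted edgeR p under 0.05, the ischemia comparison in KO mice had 1 of 6 receptors and 3 of 19 signalling genes. It also had 3 of 8 negative regulators and 7 of 17 interferon-gamma-leaning genes, against 13.2% of all genes. The share of all genes was also higher there than in the other comparisons of groups (5.25 to 9.57%).

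KO against WT mice under normal conditions asked whether Drp1 heterozygosity alone went with another level of these genes. The log2 fold changes were below 0 for 29 of 33 genes, with a median of −0.76 (all tested genes −0.021) and a range of −3.05 to 2.05. edgeR called 0 of 33 genes and 0% of the 17693 genes. Those with an unadjusted p under 0.05 numbered 2 of 33, Oasl1 (log2 fold change −3.05 ± 1.34 SE, FDR 0.937) and Ddx58 (−1.23 ± 0.56, FDR 0.937), against 5.25% of all genes. DESeq2 called 0 of the 33, with 0.233% of all genes called and 3 of the 29 that had a p at that unadjusted p. The groups overlapped for every one of the 33, where 1.9% of all genes were lower and 2.59% higher without overlap. Without WT normal mouse 2 only 6 of 33 were below 0 and the median was 0.34, and without KO normal mouse 4 all 33 were below 0 and the median was −1.497. The direction between genotypes under normal conditions therefore rested on single mice.

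KO against WT mice after ischemia asked the same in injured tissue. There 32 of 33 genes were below 0, with a median of −1.13 (all genes −0.033), and only Gbp2 was above 0, at 0.066. edgeR called 0 of 33 genes and 0% of all genes. Those with an unadjusted p under 0.05 numbered 3 of 33, Ifit3 (log2 fold change −3.05 ± 1.17 SE), Oasl2 (−2.31 ± 0.96) and Ifit2 (−1.27 ± 0.55), all with an FDR of 0.715, against 6.48% of all genes. DESeq2 called 0 of the 33 and 0.104% of all genes, with 3 of 29 at that unadjusted p. The groups overlapped for every one of the 33, with 5.97% of all genes lower and 4.74% higher without overlap. Without WT ischemia mouse 2 only 1 of 33 genes (Ifit2) was below 0 and the median was 0.76, with Ifit3 at 0.73 and Oasl2 at 0.50. The sign of the median fold change thus depended on that mouse. With the replicate number as a block in the fit the median was −0.41, and edgeR again called 0 of 33.

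Ischemia against normal conditions in WT mice gave log2 fold changes below 0 for 33 of 33 genes, with a median of −1.11 (all genes −0.0073). edgeR called 0 of 33 genes and 0.0113% of all genes. The single one with an unadjusted p under 0.05 was Rsad2 (log2 fold change −2.27 ± 1.003 SE, FDR 0.517), against 9.57% of all genes. DESeq2 called 0 of the 33 and 0.613% of all genes, with 3 of 29 at that unadjusted p. The groups overlapped for every one of the 33 (4.42% of all genes were lower and 6.63% higher without overlap). Without WT normal mouse 2 the median was −0.016 and 19 of 33 were below 0. Without WT ischemia mouse 2 it was −3.43, with a smallest FDR over all 33 of 0.524, so that edgeR still called 0. WT ischemia mouse 2 stood out by the level of these same genes, so the larger fall without it is no separate support for an effect of ischemia. The 2 WT ischemia mice that remained, 1 and 3, held the lowest value of the 14 mice for 21 and 5 of the 33 genes.

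Ischemia against normal conditions in KO mice had 9 of 33 genes without overlap between the groups, and the other comparisons of groups had 0. The log2 fold changes were below 0 for 32 of 33 genes, with a median of −1.45 (all genes −0.049), and Oasl1 alone was above 0, at 0.46. The genes for which every KO ischemia mouse lay below every KO normal mouse were Ifit3, Stat2, Oasl2, Oas3, Rsad2, Ddx58, Ifih1, Trim25 and Cmpk2, 9 of 33 against 5.6% of all genes (5.49% were higher without overlap). edgeR called 0 of 33 genes and 0.294% of all genes. Those with an unadjusted p under 0.05 numbered 9 of 33, against 13.2% of all genes. These were Zbp1 (log2 fold change −3.73 ± 1.33 SE, FDR 0.252), Ifit3 (−3.06 ± 1.13, FDR 0.268), Oas3 (−3.48 ± 1.40, FDR 0.307), Gbp2 (−2.79 ± 1.12, FDR 0.306) and Oasl2 (−2.33 ± 0.92, FDR 0.295), and Stat2, Rsad2, Dtx3l and Cmpk2 at −1.69 to −1.92. DESeq2 called 0 of the 33 and 3.44% of all genes, with 8 of 29 at that unadjusted p. Without KO normal mouse 4 the median was −0.60 with 28 of 33 below 0, 0 genes were at an unadjusted p under 0.05, and Gbp2 was at 0.077 while Ifit3 was at −2.32. Fitted on the KO groups alone, Ifit3 passed the limits (log2 fold change −3.02, edgeR FDR 0.0223). It also passed when the 3 high mice were left out (−2.29, edgeR FDR 0.0284). Those mice were picked by the level of these same genes, so that fit is no separate support for the call. Ifit3 was the only one of the 33 that edgeR called in any setting tried.

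**Figure D4:**
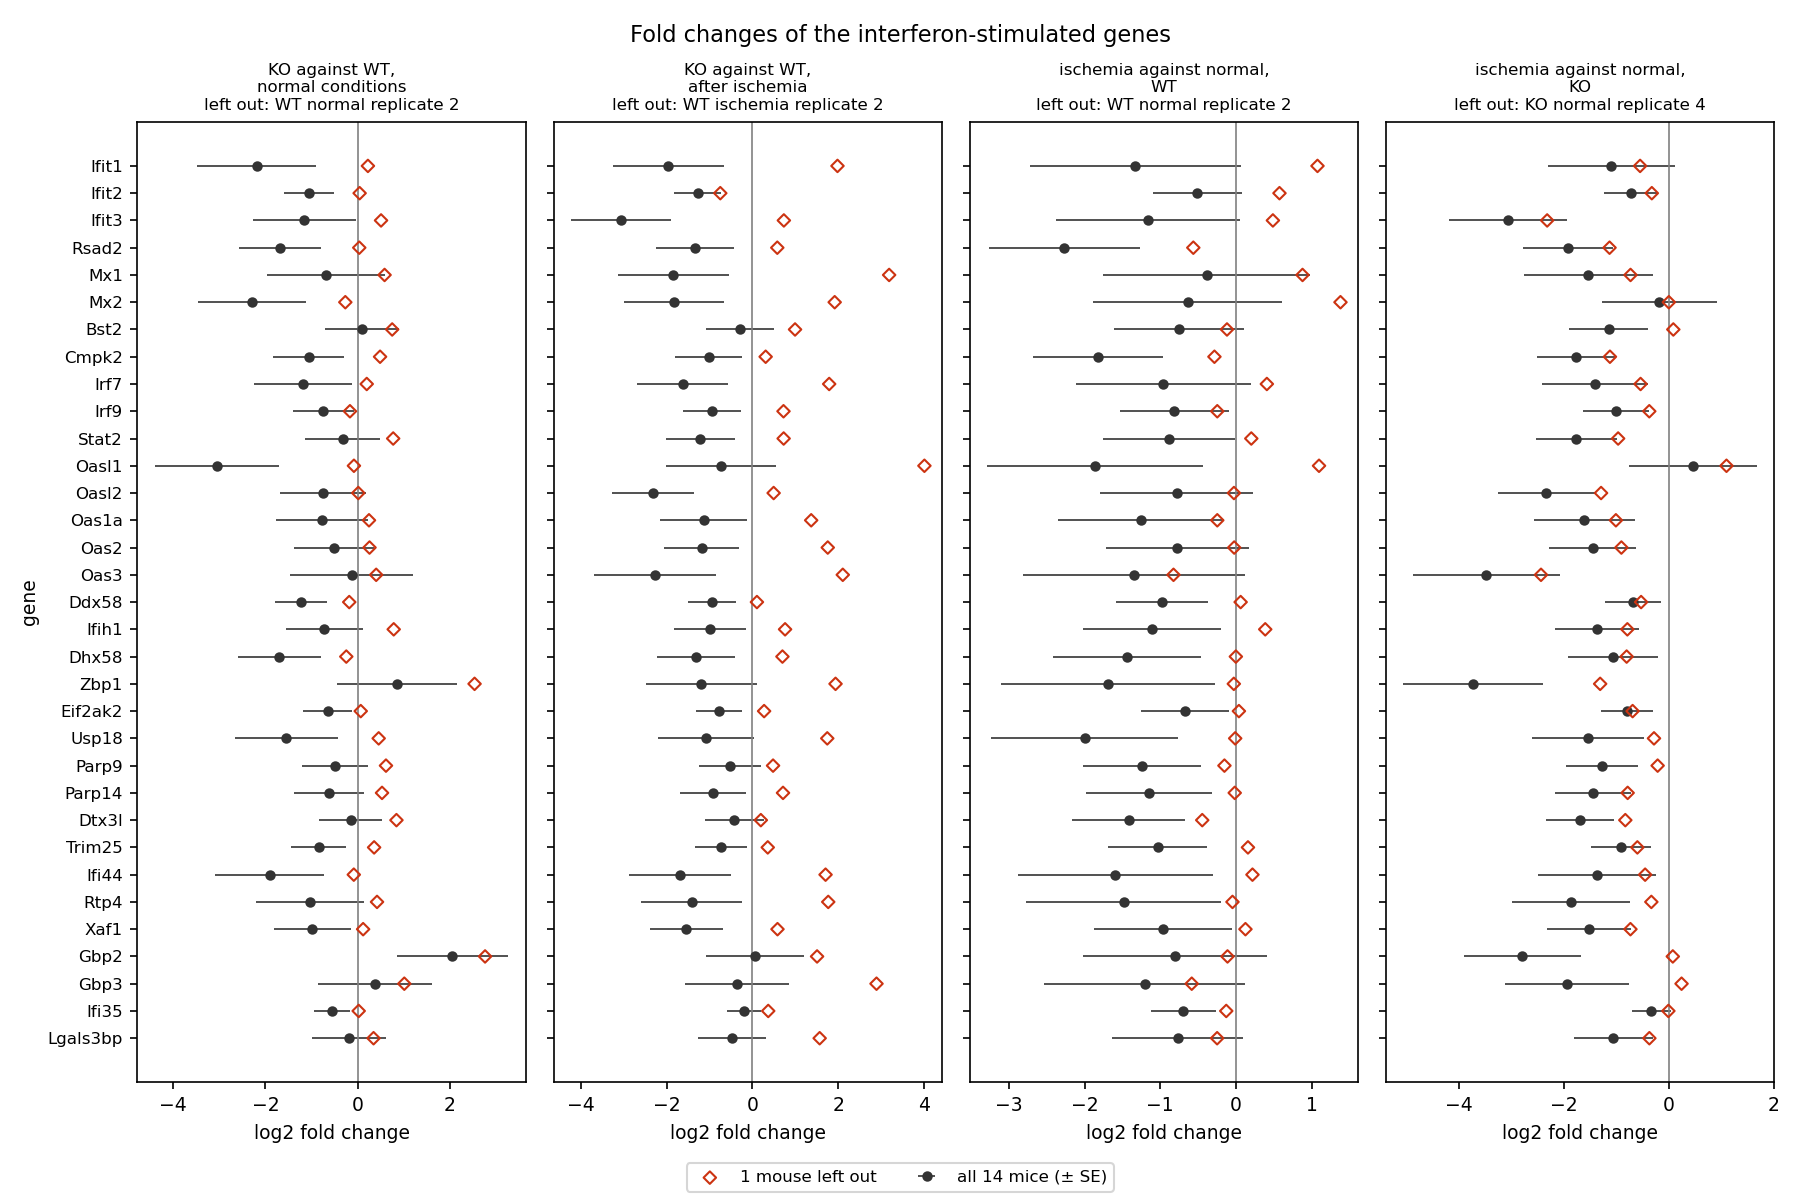
Log2 fold changes of the 33 genes (rows) in the 4 comparisons of groups, as filled points with SE bars for all 14 mice and as open diamonds with the named mouse left out. The diamonds cross 0 for most genes in the first 2 panels, gather near 0 in the third and stay mostly below 0 in the fourth.

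The difference of the ischemia effect between KO and WT mice, tested as an interaction, had a median of −0.27 (all genes −0.017), with 22 of 33 below 0 and a range from −2.14 for Oas3 to 2.32 for Oasl1. edgeR called 0 of 33 genes and 0% of all genes, with 0 of 33 at an unadjusted p under 0.05 against 4.32% of all genes. DESeq2 called 0 of the 33 and 0.0663% of all genes, with 0 of 29 at that unadjusted p. The median was −1.40 without WT normal mouse 2 and 1.57 without WT ischemia mouse 2. With the replicate number as a block the median was above 0, at 0.15, so its sign also turned with the fit. The comparisons share mice, so their fold changes are not independent of each other.

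Markers of some other cell types moved with the level of these genes and those of others did not. Over the 14 mice with group means removed, the mean of neutrophil markers had an r of 0.89 with the mean of the 33 genes, brown adipocyte markers 0.73, endothelial markers 0.68 and smooth muscle markers −0.75. The endothelial genes differed among themselves, with r at 0.79 for Cdh5, 0.62 for Kdr, 0.54 for Tek, 0.22 for Vwf and 0.035 for Pecam1. For fibroblast markers r was −0.038, for macrophage markers 0.24 and for T cell markers 0.42. These r values are given without a test because they share libraries. Neutrophil markers (3 of 5 tested, with Ly6g at 0 counts) summed to 0.177 to 2.88 CPM in WT normal, 0.281 to 4.66 in KO normal, 0.213 to 11.2 in WT ischemia and 1.25 to 14.1 in KO ischemia mice. In every group the mouse with the most was also the one with the highest mean of the 33 genes. Smooth muscle markers summed to 6970.6 CPM in WT normal mouse 2 and 10169 in KO normal mouse 4, the lowest of their groups, against 12097 to 24522 in the other normal mice. They summed to 19603 in WT ischemia mouse 2, against 27831 and 35650 in the other WT ischemia mice, and to 18330 in KO ischemia mouse 3, against 21716 to 29769 in its group mates. Brown adipocyte markers (4 of 4 tested) summed to 157 to 6638 CPM in WT normal, 1081 to 5955 in KO normal, 264 to 1364 in WT ischemia and 944 to 4707 in KO ischemia mice, and the high mouse was the highest in each of the first 3. Endothelial markers (5 of 5 tested) summed to 686 to 1524, 810 to 1232, 691 to 1208 and 599 to 1049 CPM in the 4 groups in that order. The part of these cell types in the levels of the interferon-stimulated genes was not tested.

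**Figure D5:**
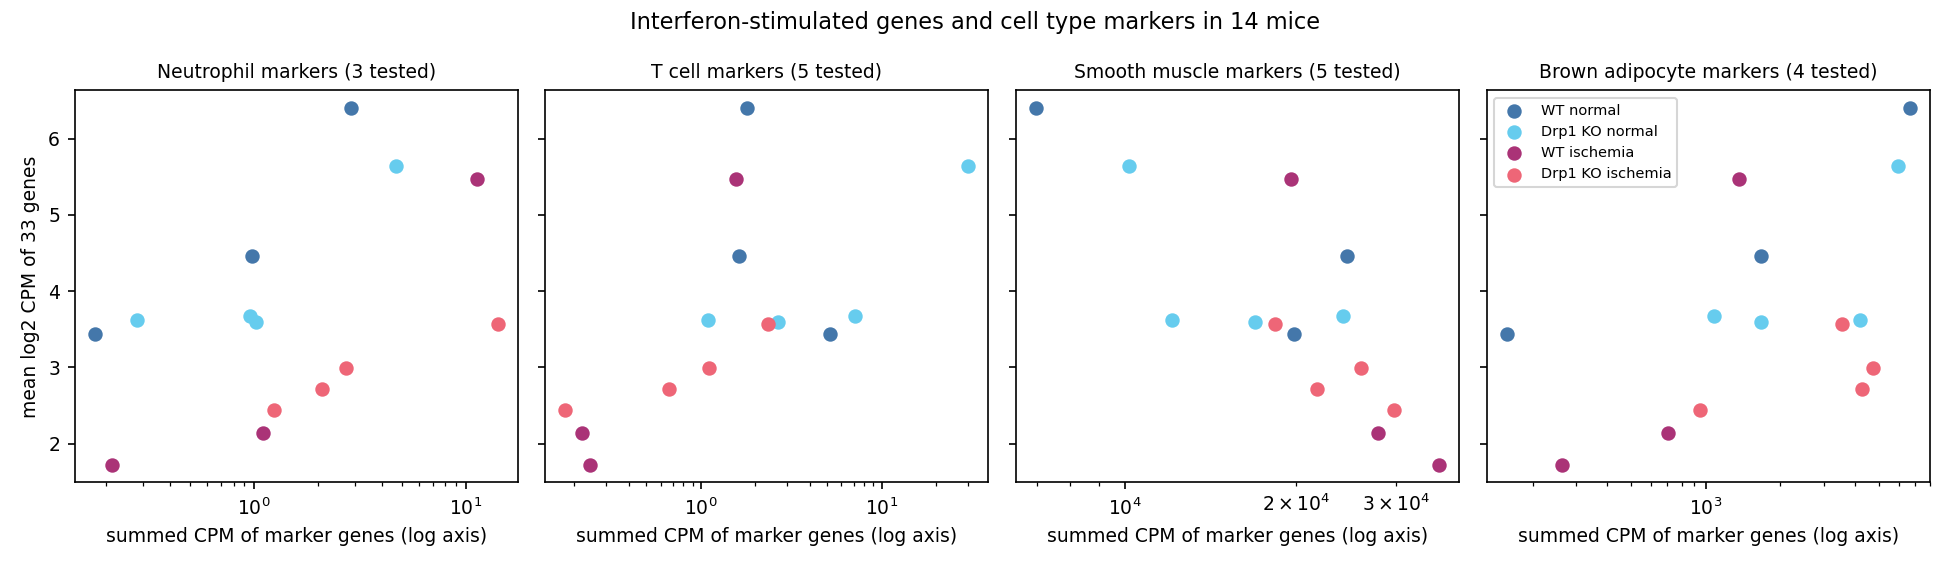
Mean log2 CPM of the 33 genes (vertical axis) against the summed CPM of marker genes on a log axis, 1 point per mouse, for neutrophils, T cells, smooth muscle and brown adipocytes. KO normal mouse 4 stands apart for T cell markers (30.2 CPM), and the high mice WT normal 2 and KO normal 4 are the 2 lowest for smooth muscle markers.

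Outside the list, the 10 genes most like the mean of the 33 by Pearson's r over the 14 mice with group means removed were Trim30a (0.97), Katna1 (0.96), Rnf213 (0.96), Slfn8 (0.96), Ifit3b (0.96), Ly6e (0.95), Lgals9 (0.95), Gvin1 (0.95), Rbks (0.95) and Uba7 (0.95). Rnf213, a large ubiquitin ligase, was at 552 CPM in WT normal mouse 2 against 40.4 and 105 in its group mates.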

How the data were processed

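RNA of the SMA was measured by RNA-seq in 14 mice, 1 library per mouse. The authors deposited whole-number read counts per gene symbol in 1 table, without normalization, and replicates were not pooled. The submitters' processing notes name HISAT2 2.0.4 and mm10, and the counting program, annotation and use of strand are not given in the sources used here, so reads of overlapping genes or near-identical copies may be split in unknown ways. The mouse of each column came from its name and the sample titles, with 0 columns left unused.

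The analysis used edgeR 4.0.16 in R 4.3.3 (filterByExpr by group, TMM, quasi-likelihood test over all 14 mice, Benjamini-Hochberg over 17693 genes) and limma 3.58.1. A gene was called when its FDR was below 0.05 and its fold above 1.5. DESeq2 1.42.0 was the alternative tool and gave 4 of the 33 genes (Oasl1, Parp14, Zbp1 and Gbp2) neither an adjusted nor an unadjusted p, so its counts are out of 29. SE is the log2 fold change divided by the square root of F. Log2 CPM used a prior count of 2, and differences of log2 CPM understate the change of low genes. The biological coefficient of variation was 0.522, so spread between mice rather than depth limits precision. The 18 pairs of mice within groups all differed by more than sampling noise (lowest chi-square per degree of freedom 59.1). The sample titles number the mice within each group, and same-numbered mice are different mice. Between WT normal and WT ischemia mice 3 of 3 same-numbered pairs had a correlation of deviations from the group means over 0.1 (0.12 to 0.19). In no other pair of groups did every pair exceed 0.1. Differently numbered pairs were not examined, so whether the numbers pair mice was not tested. The main fit left the numbers out, and a block by number over all 4 groups was an alternative.

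The members, pathway lists and markers were chosen with earlier results of these data known. Values in every mouse are given for Ddx58, any called member, and in each of 6 roles the member with the highest mean CPM and the member with the largest ratio of highest to lowest WT normal mouse (CPM plus 0.5). Ifit3, Rsad2, Zbp1 and Gbp3 were added after their values were seen, as were other genes whose single values are given, and 1 gene of the signalling list is not reported here. Promoters came from RefSeq (GRCm38.p6) and exon lengths from GENCODE M21 (GRCm38). The steps were tested on simulated counts.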

Additional observations from a re-analysis of the deposited data

Results flagged for a closer look

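In groups of 4 mice, 26 values were examined for a mouse that stood apart from the other 3 by Dixon's test. The critical value was 0.829, set for about 1 in 20. The share of all tested genes past it was not computed, and these genes were chosen with the data known, so the count is a description. The criterion was met by 14 values. Of these, 9 lay in KO normal mouse 4. There the 33 genes averaged 5.64 log2 CPM, against 3.59 to 3.68 in its group mates. Irf7 was at 95.7 CPM, Bst2 at 224, Oasl2 at 99.6, Oasl1 at 6.20, Parp14 at 147, Usp18 at 33.8, Gbp2 at 1237 and Ifi44 at 13.9 CPM in that mouse, each above all its group mates. The KO ischemia group gave the other 5. Mouse 3 stood high for Ifih1 (10.4 CPM), Ifit1 (17.1), Parp14 (45.2) and Gbp2 (107), and mouse 1 stood low for Irf7, at 8.97 CPM against 17.3 to 17.7 in the others. The genes rise and fall together, so these values are not independent of each other. The WT groups of 3 mice were not examined in this way, so the flags say nothing on WT normal mouse 2 or WT ischemia mouse 2.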

How the results depend on the processing

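Other scaling, filters, prior count, limits, DESeq2, the fit of the groups compared and the replicate block changed the number of genes called only in KO mice between ischemia and normal conditions, where fitting the groups compared called 1 of 33 (Ifit3) instead of 0. Leaving out the highest mouse of 3 groups, an alternative chosen after seeing the data, also called 1 there. It turned Ifit3 (0.73) and Oasl2 (0.50) for KO against WT after ischemia and Gbp2 (0.11) for ischemia against normal in KO mice, and gave medians of 0.76 for KO against WT after ischemia and 1.53 for the interaction, and a median r of 0.697. When single mice were left out, 0 genes were called in each of the 5 comparisons. Medians ranged from −1.497 to 0.34 for KO against WT in normal mice, −1.60 to 0.76 after ischemia, −3.43 to −0.016 between ischemia and normal WT mice, −1.68 to −0.60 in KO mice and −1.40 to 1.57 for the interaction. Log2 fold changes ranged from −3.61 to 0.73 for Ifit3 and −2.84 to 0.50 for Oasl2, KO against WT after ischemia, and from −3.48 to 0.077 for Gbp2 between ischemia and normal KO mice. The ranges over mice of the mean level were 1.02 to 2.96 in WT normal, 0.089 to 2.05 in KO normal, 0.40 to 3.75 in WT ischemia and 0.55 to 1.18 in KO ischemia mice, lowest without the high mouse of the group. Among the log2 fold changes of named genes under alternatives, 292 kept their direction and their side of the limits, 6 turned and 2 newly passed.

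Of 19 same-numbered pairs across groups, 11 had a correlation of deviations over 0.1 (−0.15 to 0.32). With the replicate block edgeR called 0 of 33 in each comparison, which changed no call, and the medians were −0.69 and −0.41 between KO and WT mice (normal, ischemia), −1.32 and −1.13 between ischemia and normal conditions (WT, KO) and 0.15 for the interaction. Low counts limit the statements on Isg15, Ifng and the other interferon genes. Every library held at least 25612646 counts, and Ifit3 had 23583 counts in all against 4 for Isg15. Whether the counting or its annotation missed reads of Isg15, or of the smooth muscle marker Tagln, was not tested.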

Other observations

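Socs3, a feedback inhibitor of cytokine receptors that is driven mainly by Stat3, did not follow the interferon-stimulated genes between conditions. It was at 10.5, 6.39 and 10.6 CPM in WT normal mice and 13.8, 7.92, 7.32 and 16.9 in KO normal mice. After ischemia Socs3 was at 20.4, 187 and 20.1 CPM in WT and 47.2, 38.9, 165 and 153 in KO mice, so that neither genotype overlapped between conditions. The log2 fold change was 3.05 ± 0.84 SE in WT mice (edgeR FDR 0.513) and 3.14 ± 0.73 in KO mice (FDR 0.0928), which did not pass the limits, whereas DESeq2 called it in both. WT ischemia mouse 2 was the highest of its group for both Socs3 and the mean of the 33 genes, as was KO ischemia mouse 3 (165 CPM, and 3.57 for the mean). KO ischemia mouse 4 was at 153 CPM for Socs3 and at 2.71 for the mean. With group means removed, r between Socs3 and the mean was 0.605 over the 14 mice.

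The chemokine Cxcl10, a target of both kinds of interferon, was at 0.413, 4.72 and 1.40 CPM in WT normal mice and 0, 0.253, 0.497 and 32.7 in KO normal mice. After ischemia Cxcl10 was at 4.07, 43.1 and 1.27 CPM in WT and 5.88, 5.87, 31.0 and 8.33 in KO mice. All 4 KO ischemia mice thus stood above 3 of the 4 KO normal mice for Cxcl10, while Ifit3 and Oasl2 stood below all 4.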
